A study of Mus musculus with 12 samples.

Results

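Transcripts of 10 ZIP zinc importers were followed across 4 groups of G1E-ER-GATA-1 cells. The 10 genes (Slc39a1, Slc39a3, Slc39a4, Slc39a6, Slc39a7, Slc39a8, Slc39a9, Slc39a10, Slc39a11 and Slc39a14) were chosen by name, as members of the SLC39 family, out of 25097 genes in each table, which hold 14 ZIP genes in all. Of these 10, 9 passed the filter on low counts and could be tested. Slc39a4 passed it through the untreated group alone, where its counts were highest. Slc39a14 did not pass.

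G1E cells are mouse erythroid precursors that lack their own GATA-1, the transcription factor that drives red cell maturation. All 12 libraries came from such cells carrying ER-GATA-1, a GATA-1 protein fused to a hormone-binding part of the estrogen receptor and made active by beta-estradiol. The groups, of 3 libraries each, were double-mutant cells given 1 µM beta-estradiol for 48 h and 1 mM 5-aminolevulinic acid (5-ALA), double-mutant cells given the same estradiol alone, wild-type (WT) cells given estradiol, and untreated WT cells. In the mutant cells, cis-elements of Alas2 are altered. Which elements these are is not stated in the labels. Its product, the ALAS2 enzyme, starts heme synthesis in red cell precursors by making 5-ALA, so that added 5-ALA enters the pathway after this enzyme. No untreated mutant libraries were analysed, so a difference between the 2 lines before estradiol cannot be told apart from one that arises with it. The labels say neither how many mutant clones were used nor whether replicates were separate cultures, so p-values measure the spread between these libraries, which may be technical.

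ZIP proteins carry zinc into the cytosol, either from outside the cell or out of organelles. The ZnT exporters (SLC30 genes) carry zinc the opposite way, metallothioneins bind it within the cell, and the zinc-sensing factor MTF-1 acts on metallothionein genes and on the exporter gene Slc30a1 through metal response elements (MREs). Developing red cells need zinc for the GATA-1 zinc fingers and for carbonic anhydrase, an abundant zinc enzyme of the red cell.

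Libraries held 20309085 to 43548387 expected counts, and replicates of a group correlated across genes with Pearson's r of 0.99232 to 0.99488. Alas2, in CPM (counts scaled to a common library size), averaged 12.3 ± 0.237 in mutant cells given estradiol with 5-ALA, 7.64 ± 2.20 in mutant cells given estradiol alone, 4293 ± 15.1 in WT cells with estradiol and 5.12 ± 0.767 in untreated WT cells (SD, n = 3 each). Every mutant library thus lay far below every estradiol-treated WT library. All 11 erythroid markers were at 1 CPM or more in every group, and their summed level was 55510 to 58620 CPM in mutant cells with 5-ALA, 18670 to 19290 CPM in mutant cells given estradiol alone, 58580 to 59310 CPM in WT cells with estradiol and 1272 to 1294 CPM in untreated WT cells. Megakaryocyte markers summed to 724.7 to 741.7, 424.6 to 441.2, 1851 to 1874 and 187.7 to 194.0 CPM in the same order of groups, with Gp1bb at 0. Most of this sum in each estradiol group was Itgb3, at means of 686.6, 390.6 and 1784 CPM, against 87.92 CPM in untreated WT cells. The list did not move as a whole. Of its 6 tested genes, 4 were higher and 2 lower in treated than in untreated WT cells. The lower ones were Itga2b (21.21 against 60.83 CPM) and Pf4 (2.375 against 28.39 CPM). Mast cell markers summed to at most 2.32 CPM in each estradiol group, against 139.9 to 155.4 CPM in untreated WT cells. Most of the untreated sum was Cpa3, at a mean of 139.4 CPM, and Fcer1a and Tpsb2 were at 0 in every group. This list did not move as a whole either. Of its 4 tested genes, 3 were lower and 1 higher in treated than in untreated WT cells. The higher one was Cma1 (0.684 against 0 CPM). Markers of granulocytes and macrophages (Ly6g, S100a8 and S100a9 at 0), lymphocytes and fibroblasts (Dcn at 0) summed to at most 3.61 CPM per list in any library. These sums differ between the groups in the same comparisons as the ZIP genes below, and their part in those differences was not tested. In bulk RNA, fewer cells of a type and less RNA per cell cannot be told apart.

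Levels of different ZIP genes were compared in TPM, the deposited transcript measure scaled for transcript length. In mutant cells with 5-ALA, the 14 ZIP genes together had 352.7 ± 3.68 TPM. The total was 339.4 ± 1.60 TPM in mutant cells with estradiol, 397.0 ± 5.14 TPM in WT cells with estradiol and 188.1 ± 1.23 TPM in untreated WT cells (SD, n = 3 each). The gene that held most of this total differed with estradiol. Slc39a8 made up 61.1 ± 0.220%, 59.1 ± 0.163% and 59.6 ± 0.0357% of it in the 3 estradiol groups, in the order above, against 8.50 ± 0.371% in untreated WT cells. Slc39a7 held 17.7 ± 0.402%, 16.6 ± 0.701% and 20.2 ± 0.410% in the same estradiol groups, and led in untreated WT cells with 41.6 ± 0.840%.

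The order of the levels was nearly fixed among the estradiol groups. It ran Slc39a8 (236.5 TPM in WT cells with estradiol), Slc39a7 (80.3 TPM), Slc39a13 (32.4 TPM), Slc39a9 (24.2 TPM), Slc39a1 (13.1 TPM), Slc39a10 (4.12 TPM), Slc39a6 (2.74 TPM), Slc39a3 (2.23 TPM) and Slc39a11 (1.17 TPM), and no 2 neighbours in this list overlapped between libraries. In mutant cells the first 5 places were the same. Below them, Slc39a3 and Slc39a10 overlapped in mutant cells with estradiol, and Slc39a10 overlapped with Slc39a6, and Slc39a6 with Slc39a3, in mutant cells with 5-ALA. In untreated WT cells the order began Slc39a7 (78.3 TPM), Slc39a9 (25.0 TPM), Slc39a1 (22.8 TPM) and Slc39a8 (16.0 TPM), and Slc39a10, Slc39a6 and Slc39a11 followed with overlapping ranges at 11.7, 11.7 and 10.9 TPM.

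**Figure D1:**
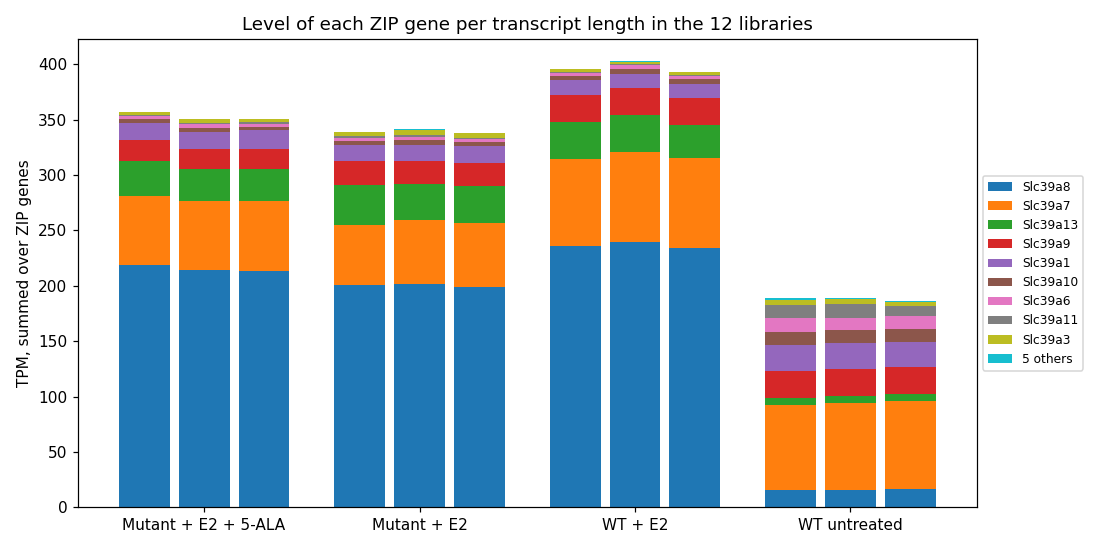
TPM of each ZIP gene stacked in 1 bar per library, 3 bars per group, for mutant cells with estradiol (E2) and 5-ALA, mutant cells with E2, WT cells with E2 and untreated WT cells. Slc39a8 is the tallest part of every bar in the 3 estradiol groups (means 215.6, 200.5 and 236.5 TPM, against 16.0 TPM untreated), and Slc39a7 that of the untreated bars (78.3 TPM).

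Estradiol-treated against untreated WT cells was the comparison that addresses what happens to the importers when GATA-1 is switched on. No estradiol-treated cells without ER-GATA-1 were analysed, so effects of estradiol itself cannot be told apart from those of GATA-1. Slc39a8 rose 18.1-fold, while Slc39a6 and Slc39a10, which also encode plasma-membrane importers, fell by over 2-fold and Slc39a1 and Slc39a3 by less. Slc39a4 had next to no counts with estradiol, and Slc39a14 had too few in either group to be tested. Among the intracellular members, Slc39a11 fell to 0.130 of its untreated level, and Slc39a7 and Slc39a9 were slightly higher, though their direction depended on the scaling. By edgeR's quasi-likelihood test with Benjamini-Hochberg adjustment over 12115 genes, 3 of the 9 tested members were higher and 6 lower at an adjusted p below 0.05. This stands against a background in which 89.7% of all tested genes passed, 43.3% higher and 46.4% lower, so passing the test sets the members little apart from other genes. At 2-fold or more, 1 member was higher and 4 were lower, beside 26.5% and 30.3% of all genes. Slc39a4 is among the 6 and the 4 that were lower, and since it was tested only because of its untreated counts, its place there was fixed in part by the filter. The median log2 fold change of the 9 was -0.65, and that of all tested genes -0.03.

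Slc39a8 (ENSMUSG00000053897, mm10 chromosome 3, 135825279 to 135888572, plus strand) encodes ZIP8, a plasma-membrane importer that carries manganese, iron and cadmium as well as zinc. It had 510, 513 and 504 CPM in the 3 libraries of WT cells with estradiol, against 27.1, 27.4 and 29.7 CPM in untreated WT cells. The groups lie far apart and each is tight. The log2 fold change was 4.18 (SE 0.0287, adjusted p = 2.36e-39 by edgeR), the SE here and below being an approximation from the F statistic of the fit. Because it is the member that rose most in the cells where GATA-1 was switched on, both of its RefSeq promoter windows (GRCm38.p6, plus strand, 250 bases before to 50 after an annotated start) are shown. The first is chr3:135825029-135825328 and the second chr3:135825407-135825706. Capitals mark matches, on either strand, to the GATA letters AGATAA or TGATAA or AGATAG or TGATAG, or to the MRE core TGCACNC or TGCGCNC.
Slc39a8 window 1: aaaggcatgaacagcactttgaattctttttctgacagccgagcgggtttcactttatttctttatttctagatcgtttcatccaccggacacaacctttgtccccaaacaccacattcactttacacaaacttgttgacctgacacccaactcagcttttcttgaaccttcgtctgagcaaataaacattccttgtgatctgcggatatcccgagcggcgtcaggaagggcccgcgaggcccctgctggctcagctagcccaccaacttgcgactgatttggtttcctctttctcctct
Slc39a8 window 2: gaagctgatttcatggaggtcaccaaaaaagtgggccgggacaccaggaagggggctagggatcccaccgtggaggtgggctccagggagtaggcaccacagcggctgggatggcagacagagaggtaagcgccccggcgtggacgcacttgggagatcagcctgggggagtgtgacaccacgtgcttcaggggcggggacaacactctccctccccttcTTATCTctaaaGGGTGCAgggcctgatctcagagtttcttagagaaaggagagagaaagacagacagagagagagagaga
Window 1 holds neither motif. In window 2 a GATA match begins at base -30 and an MRE match at base -19, counted from the start site, with no overlap between them. GATA letters stand in 29.8% and the MRE core in 25.7% of the 32851 promoter windows of the table, so either match is common.

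Slc39a10 (ENSMUSG00000025986, chromosome 1, 46807544 to 46892852, minus strand) and Slc39a6 (ENSMUSG00000024270, chromosome 18, 24579881 to 24603817, minus strand) encode ZIP10 and ZIP6, related plasma-membrane importers that form a heteromer. Slc39a6 is also known as LIV-1, an estrogen-responsive gene of human breast cancer cells. Slc39a10 had 11.98, 13.3 and 12.5 CPM in WT cells with estradiol, against 31.7, 32.9 and 31.8 CPM in untreated cells. Slc39a6 had 5.45, 6.67 and 5.90 CPM in WT cells with estradiol, against 24.4, 22.1 and 22.4 CPM in untreated cells. Neither pair of groups overlapped, and both genes fell. Their log2 fold changes were -1.35 (SE 0.0604, adjusted p = 6.57e-19 by edgeR) and -1.94 (SE 0.0744, adjusted p = 1.35e-20), with Slc39a10 given first.

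Slc39a4 (ENSMUSG00000063354, chromosome 15, 76612383 to 76617384, minus strand) encodes ZIP4, the importer of dietary zinc in the gut. It was counted 0, 2 and 0 times in the libraries of WT cells with estradiol, against 44, 25 and 46 times in untreated WT cells. Nearly all of its reads in this series came from untreated cells, where it stood at 1.1 ± 0.0799 CPM (SD, n = 3). The ratio of the summed counts, 2 with estradiol against 115 without, was 0.0219 after scaling for depth (95% exact interval 0.00262 to 0.0809). As the gene passed the filter through its untreated counts alone, no p-value is given for this difference. The 2 libraries at 0 allow up to 0.0979 and 0.135 CPM, the level of 3 counts, and these intervals and limits cover counting error only. Slc39a14 (ENSMUSG00000022094, chromosome 14, 70303469 to 70351425, minus strand) encodes ZIP14, the close relative of ZIP8 that carries iron and manganese in the liver. It had 3.36 expected counts or fewer in every library of the series, near the limit of 0.0681 to 0.146 CPM that 3 counts set, and no difference could be detected at this depth.

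Slc39a1 (ENSMUSG00000052310, chromosome 3, 90248172 to 90253612, plus strand) and Slc39a3 (ENSMUSG00000046822, chromosome 10, 81028538 to 81037426, minus strand) encode ZIP1 and ZIP3, related importers of the plasma membrane. Slc39a1 had 21.2, 19.3 and 19.98 CPM in WT cells with estradiol, against 29.3, 28.2 and 28.9 CPM in untreated cells, a log2 fold change of -0.51 (SE 0.0548, adjusted p = 7.23e-10 by edgeR). Slc39a3 had 4.80, 4.53 and 4.55 CPM with estradiol, against 8.35, 6.49 and 6.83 CPM without, a log2 fold change of -0.65 (SE 0.111, adjusted p = 3.6e-06). Both falls were under 2-fold, and the groups did not overlap for either gene.

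Slc39a11 (ENSMUSG00000041654, chromosome 11, 113244853 to 113650079, minus strand) encodes ZIP11, the mammalian member of the gufA branch of the family, found within the cell. It had 1.53, 2.04 and 2.03 CPM in WT cells with estradiol, against 14.9, 14.8 and 13.4 CPM in untreated cells. The highest treated library lay far below the lowest untreated one. The log2 fold change was -2.95 (SE 0.111, adjusted p = 8.09e-21 by edgeR), the largest fall among the members with more than a few counts in both groups. Its 2 RefSeq promoter windows (GRCm38.p6, minus strand) are shown for comparison with those of Slc39a8, with capitals marking the same motifs. They are chr11:113565766-113566065 and chr11:113650043-113650342.
Slc39a11 window 1: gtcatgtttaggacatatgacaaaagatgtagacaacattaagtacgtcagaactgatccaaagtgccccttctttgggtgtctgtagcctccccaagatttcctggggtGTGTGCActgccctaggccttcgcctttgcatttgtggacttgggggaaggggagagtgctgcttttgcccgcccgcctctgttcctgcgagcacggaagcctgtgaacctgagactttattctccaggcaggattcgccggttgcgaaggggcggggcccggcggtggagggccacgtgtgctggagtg
Slc39a11 window 2: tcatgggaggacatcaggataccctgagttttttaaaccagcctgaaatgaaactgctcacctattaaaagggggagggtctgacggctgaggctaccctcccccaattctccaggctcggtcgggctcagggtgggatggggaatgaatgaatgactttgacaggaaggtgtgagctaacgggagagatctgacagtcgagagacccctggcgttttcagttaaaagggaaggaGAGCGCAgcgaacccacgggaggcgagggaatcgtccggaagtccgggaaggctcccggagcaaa
Window 1 holds an MRE match at base -140 and window 2 one at base -15, and neither holds the GATA letters. Across the 7 members with a window, 2 of 10 windows held GATA letters (the second windows of Slc39a8 and Slc39a10) and 4 held the MRE core (1 of Slc39a3, 1 of Slc39a8 and 2 of Slc39a11). The matches describe letters and not binding sites.

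Slc39a7 (ENSMUSG00000024327, chromosome 17, 34028269 to 34031682, minus strand) encodes ZIP7, which lets zinc out of the endoplasmic reticulum and Golgi. Slc39a9 (ENSMUSG00000048833, chromosome 12, 80643883 to 80683342, plus strand) encodes ZIP9 of the Golgi. Slc39a7 had 110.3, 109.3 and 110.4 CPM in WT cells with estradiol, against 88.4, 83.1 and 89.1 CPM in untreated cells. Slc39a9 had 84.1, 84.0 and 81.5 CPM with estradiol, against 70.1, 69.3 and 71.8 CPM without. With TMM scaling the log2 fold changes were 0.34 (SE 0.0293, adjusted p = 7.35e-12 by edgeR) for Slc39a7 and 0.24 (SE 0.0305, adjusted p = 2.07e-08) for Slc39a9. When the counts were scaled by library totals alone, the median of all genes moved to -0.37, and the values became -0.003 (adjusted p = 0.906) for Slc39a7 and -0.10 (adjusted p = 0.00234) for Slc39a9. Relative to the median of all genes, they were 0.37 and 0.27 higher under both scalings. Changing the scaling moves all genes by about the same amount, so this agreement was fixed in advance and is no check. In TPM the pair had 80.3 and 24.2 with estradiol, against 78.3 and 25.0 without. Both differences were small, and their sign depended on the scaling. Slc39a9 also shares 103 exon bases with Erh on the opposite strand, and Erh had 50.4 to 53.3 CPM in WT cells with estradiol, against 349.0 to 358.1 CPM in untreated cells. Whether strand was used in counting is not given in the sources used here, so shared reads cannot be told apart.

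**Figure D2:**
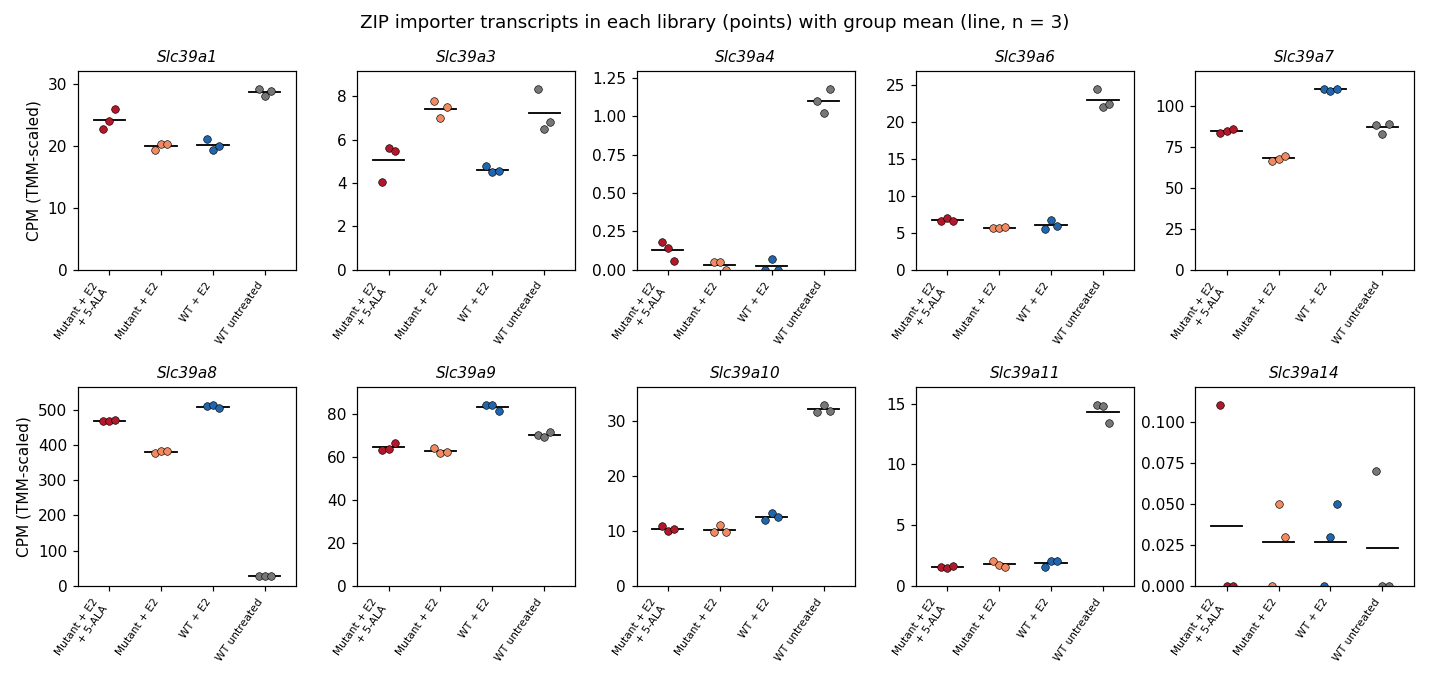
Level of each ZIP importer in CPM (TMM-scaled, linear axes from 0) in every library, with the group mean as a line, n = 3 per group. Slc39a8 stands above 377 CPM in all 9 estradiol libraries and below 30 CPM in the 3 untreated ones, and Slc39a4, Slc39a6, Slc39a10 and Slc39a11 show the opposite arrangement.

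Estradiol-treated mutant cells were then set against WT cells with the same treatment, which addresses how the importers differ in cells with altered Alas2 elements. Effects of these elements cannot be told apart from other differences between the 2 lines. Slc39a7, Slc39a8, Slc39a9 and Slc39a10 were lower in mutant cells and Slc39a3 was higher, each by under 2-fold, though Slc39a10 did not pass with library totals or in the limma fit of TPM, where its value was 0.02. Slc39a1, Slc39a4, Slc39a6 and Slc39a11 did not pass the test. By edgeR 1 of 9 members was higher, 4 were lower and 4 did not pass. Of all tested genes, 68.8% passed, 35.1% higher and 33.6% lower, so the members passed no more often than the background. The median log2 fold change was -0.08 over the 9 members and -0.01 over all tested genes. Scaling by library totals moved the median of all genes to 0.14, and the share of calls that were higher was then 66.5%, against 51.1% with TMM and 70.7% in the limma fit of TPM.

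Slc39a7 had 66.6, 67.8 and 69.5 CPM in mutant cells, against 110.3, 109.3 and 110.4 CPM in WT cells with estradiol. It was lower in mutant cells by a log2 fold change of -0.69 (SE 0.0303, adjusted p = 2.83e-18 by edgeR), and also lay below its untreated WT level. Slc39a8 had 378, 382 and 381 CPM in mutant cells, against 510, 513 and 504 CPM in WT cells, a log2 fold change of -0.42 (SE 0.0228, adjusted p = 4.65e-16). Mutant cells therefore held 0.747 of the WT level of Slc39a8, still 13.5-fold above untreated WT cells. Slc39a9 had 64.3, 62.0 and 62.2 CPM in mutant cells, against 84.1, 84.0 and 81.5 CPM in WT cells, a log2 fold change of -0.41 (SE 0.0312, adjusted p = 1.22e-12).

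Among the less abundant importers, Slc39a3 had 7.78, 6.99 and 7.51 CPM in mutant cells, against 4.80, 4.53 and 4.55 CPM in WT cells with estradiol. It was the member that was higher in the mutant, with a log2 fold change of 0.67 (SE 0.112, adjusted p = 4.92e-06 by edgeR), and its mutant level overlapped that of untreated WT cells. Slc39a10 had 9.87, 11.0 and 9.88 CPM in mutant cells, against 11.98, 13.3 and 12.5 CPM in WT cells, a log2 fold change of -0.28 (SE 0.0673, adjusted p = 0.0005). That difference was -0.13 (adjusted p = 0.0972) with library totals and 0.02 (adjusted p = 0.861) in the limma fit of TPM. Relative to the median of all genes it was -0.27 with TMM and with library totals, which must agree in this, and -0.10 in TPM. Slc39a1 had 19.4, 20.3 and 20.3 CPM in mutant cells, against 21.2, 19.3 and 19.98 CPM in WT cells. Its log2 fold change of -0.01 (adjusted p = 0.89) became 0.14 (adjusted p = 0.0217) with library totals and 0.17 (adjusted p = 0.00648) in TPM. Slc39a6 at 5.67 ± 0.0735 CPM in mutant and 6.01 ± 0.620 CPM in WT cells, and Slc39a11 at 1.797 ± 0.273 CPM in mutant and 1.87 ± 0.289 CPM in WT cells (SD, n = 3 each), overlapped between the groups. Slc39a4 had 3 counts in mutant and 2 counts in WT cells over 3 libraries each, too few to show a difference.

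Mutant cells given 5-ALA as well were set against mutant cells given estradiol alone, which addresses what the product of the ALAS2 enzyme does when it is supplied. Slc39a7, Slc39a8, Slc39a1 and Slc39a6 were higher with 5-ALA and Slc39a3 was lower, none by as much as 2-fold. Slc39a9, Slc39a10 and Slc39a11 did not pass the test. By edgeR 4 of 9 members were higher and 1 was lower, beside 42.6% of all genes called, 21.6% higher and 21% lower. The median log2 fold change was 0.24 over the 9 members and 0.01 over all tested genes. The share of calls that were higher was 50.7% with TMM, 23.6% with library totals and 12.4% in the limma fit of TPM, where the median of all genes was -0.15.

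Slc39a8 had 468, 469 and 469 CPM with 5-ALA, against 378, 382 and 381 CPM without, a log2 fold change of 0.30 (SE 0.0228, adjusted p = 5.09e-12 by edgeR). Slc39a7 had 83.5, 84.7 and 86.1 CPM with 5-ALA, against 66.6, 67.8 and 69.5 CPM without, a log2 fold change of 0.32 (SE 0.0309, adjusted p = 1.14e-09). Both genes were thus higher with 5-ALA in every library. Slc39a3 had 4.07, 5.63 and 5.46 CPM with 5-ALA, against 7.78, 6.99 and 7.51 CPM without, a log2 fold change of -0.54 (SE 0.109, adjusted p = 1.7e-04). Slc39a1 had 22.8, 24.01 and 26.1 CPM with 5-ALA, against 19.4, 20.3 and 20.3 CPM without, a log2 fold change of 0.28 (SE 0.0555, adjusted p = 1.52e-04), which was 0.07 and did not pass in the limma fit of TPM. Slc39a6 had 6.56, 6.94 and 6.62 CPM with 5-ALA, against 5.64, 5.61 and 5.75 CPM without.

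The difference of Slc39a6 was small and at the edge of the threshold. Its log2 fold change was 0.24 (SE 0.0853, adjusted p = 0.0217 by edgeR), and the adjusted p was 0.176 with library totals, 0.0916 with DESeq2, 0.0589 without the filter and 0.0681 in the limma fit of TPM. It was also 0.0536 without replicate 1 and 0.0717 without replicate 2 of mutant cells with estradiol, and 0.0923 without replicate 2 of mutant cells with 5-ALA. Slc39a4 was counted 5, 4 and 2 times with 5-ALA, against 1, 2 and 0 times without. The ratio of its summed counts, 11 against 3, was 4.07 after scaling for depth (95% exact interval 1.08 to 22.7), and the adjusted p was 0.0639, or 0.0381 without replicate 3 of mutant cells with 5-ALA. At 64.5 ± 1.56 CPM with and 62.8 ± 1.23 CPM without 5-ALA, Slc39a9 overlapped between the groups. Slc39a10 had 10.4 ± 0.421 CPM with and 10.3 ± 0.666 CPM without (SD, n = 3 each). In the limma fit of TPM these 2 genes were lower with 5-ALA, by log2 fold changes of -0.16 (adjusted p = 0.00197) and -0.25 (adjusted p = 0.0367).

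The fourth comparison sets mutant cells with estradiol and 5-ALA against WT cells with estradiol, and shares its samples with the comparisons above. Slc39a7, Slc39a8, Slc39a9 and Slc39a10 were still lower in mutant cells with 5-ALA than in WT cells, Slc39a1 was higher, and Slc39a3 overlapped between the groups. By edgeR 2 of 9 members were higher and 4 lower, beside 62.3% of all genes called, 33.3% higher and 29% lower, and the median log2 fold change was -0.12 over the members and 0.01 over all tested genes. Slc39a8, at 469 ± 0.497 CPM in mutant cells with 5-ALA and 509 ± 4.36 CPM in WT cells with estradiol, was the least different of the 4 lower members, with a log2 fold change of -0.12 (SE 0.0226, adjusted p = 4.18e-05). Slc39a7 stood at 84.8 ± 1.29 CPM in mutant cells with 5-ALA and at 109.3 to 110.4 CPM in WT cells, a log2 fold change of -0.38 (SE 0.0298, adjusted p = 4.4e-12). Slc39a9, at 64.5 ± 1.56 CPM in mutant cells with 5-ALA and 83.2 ± 1.5 CPM in WT cells, had a log2 fold change of -0.37 (SE 0.0312, adjusted p = 1.99e-11). Slc39a1 was higher in mutant cells with 5-ALA, by 0.27 (SE 0.0562, adjusted p = 1.33e-04).

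The other member called higher, Slc39a4, rested on 11 counts in mutant cells with 5-ALA and 2 counts in WT cells with estradiol, a ratio of 5.15 (95% exact interval 1.12 to 47.8) with overlapping libraries. Its adjusted p was 0.0361 by edgeR, 0.0792 by DESeq2 and 0.11 in the limma fit of TPM. It was 0.155 without replicate 1 and 0.106 without replicate 3 of WT cells with estradiol, and 0.119 without replicate 1 and 0.0758 without replicate 2 of mutant cells with 5-ALA. Slc39a10 had a log2 fold change of -0.27 (SE 0.0678, adjusted p = 8.78e-04), which did not pass in the limma fit of TPM. Slc39a6 had a log2 fold change of 0.16 (SE 0.0865, adjusted p = 0.114), which passed with library totals (adjusted p = 0.0357) and without replicate 2 of WT cells with estradiol (adjusted p = 0.0248).

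**Figure D3:**
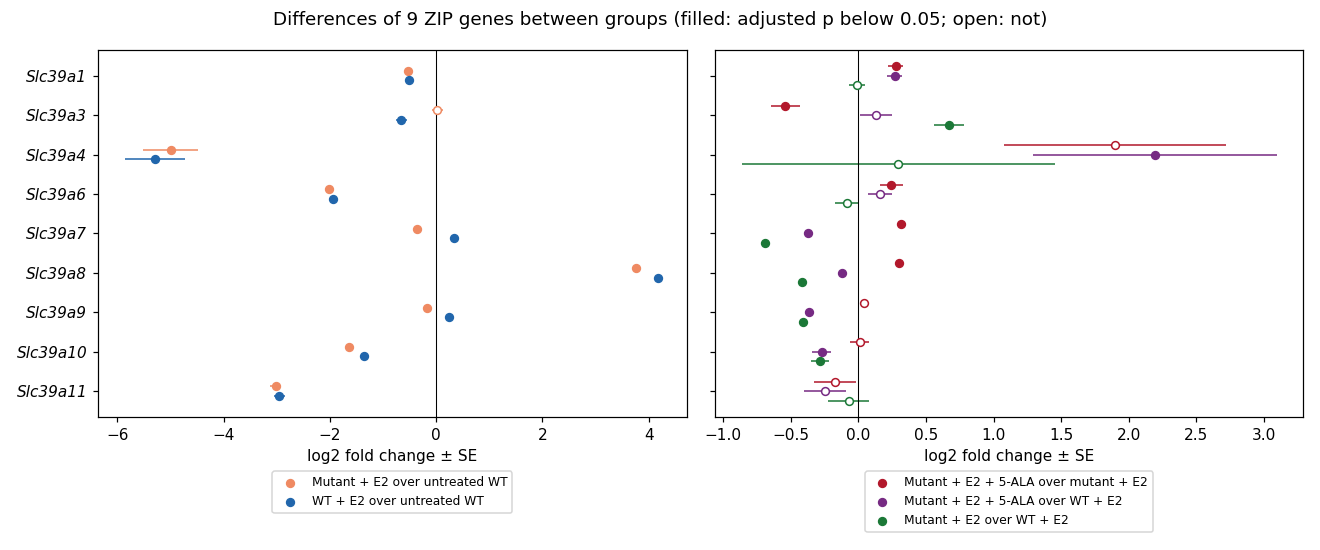
Log2 fold change of each tested ZIP importer with 1 approximate SE (TMM scaling), against untreated WT cells on the left and between estradiol groups on the right, with filled points at an adjusted p below 0.05. With estradiol in WT cells the values were 4.18 for Slc39a8 and -2.95 for Slc39a11. Slc39a4 lies lowest, at -5.29. Its filled points on the left rest on few counts, and it passed the filter through its untreated counts alone. The small rises of Slc39a7 and Slc39a9 with estradiol in WT cells become -0.003 (not past the test) and -0.10 when scaled by library totals.

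The last comparison, mutant cells with estradiol against untreated WT cells, combines the line and the treatment. Slc39a8 was again higher, Slc39a3 did not pass, and the other 7 tested members were lower. Slc39a4, with 3 counts in mutant and 115 counts in untreated WT cells, is among these 7 and in the median below. Since it was tested only because of its untreated counts, its place there was fixed in part by the filter. Here 88.1% of all tested genes passed by edgeR, 42.5% higher and 45.5% lower, and the median log2 fold change was -0.52 over the members and -0.02 over all genes. The log2 fold changes were 3.76 (SE 0.0287, adjusted p = 2.97e-38) for Slc39a8, -3.02 (SE 0.109, adjusted p = 2.67e-21) for Slc39a11 and -2.02 (SE 0.0734, adjusted p = 3.33e-21) for Slc39a6. Slc39a7 and Slc39a9 were lower here by -0.36 and -0.17, with the call and the direction the same under each alternative tried.

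The remaining ZIP genes and the genes that export or bind zinc were set beside the members. Of the other 4 ZIP genes only Slc39a13, which encodes ZIP13 of intracellular vesicles, had enough counts. It had 30.1, 27.8 and 29.6 CPM in WT cells with estradiol, against 5.30, 4.37 and 4.70 CPM in untreated WT cells, a log2 fold change of 2.59 (SE 0.0684, adjusted p = 8.09e-25 by edgeR). It was thus the second ZIP gene to rise by more than 2-fold, and it shares 215 exon bases with Psmc3 on the opposite strand. In mutant cells it had 27.9, 29.1 and 29.9 CPM with 5-ALA and 27.1, 25.4 and 25.2 CPM with estradiol alone.

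Of the 10 ZnT genes, 7 were tested. With estradiol in WT cells 3 were higher and 4 lower, in mutant against WT cells 3 were higher and 2 lower, and with 5-ALA 1 was higher and 3 lower, beside 89.7%, 68.8% and 42.6% of all genes called in these comparisons. Slc30a1, the plasma-membrane zinc exporter, had 1345, 1360 and 1361 CPM in WT cells with estradiol, against 43.9, 42.1 and 44.6 CPM in untreated WT cells. This 31.1-fold difference was larger than that of Slc39a8. Slc30a2 went the other way by as much, at 0.287 CPM with estradiol against 8.83 CPM without. It had only 6, 9 and 8 counts in the treated WT libraries. In mutant cells Slc30a1 had 851, 845 and 855 CPM with 5-ALA, against 404, 398 and 391 CPM with estradiol alone, and both were below WT cells with estradiol (log2 fold changes -0.67 and -1.77, SE 0.0228 and 0.0235, adjusted p = 9.89e-21 and 9.78e-31 by edgeR). Slc30a10, a manganese exporter, averaged 237.1 ± 3.06 CPM in mutant cells with 5-ALA, 312.2 ± 3.87 CPM in mutant cells given estradiol alone, 160.1 ± 2.48 CPM in WT cells with estradiol and 26.5 ± 0.834 CPM in untreated WT cells (SD, n = 3 each). It rose like Slc30a1 with estradiol in WT cells, by 6.05-fold, and moved opposite to it between the lines and with 5-ALA. Slc30a10 shares 533 exon bases with Gm2061 on the opposite strand, so shared reads cannot be told apart here either.

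The zinc-binding metallothioneins ran opposite to Slc39a8 with estradiol in WT cells, between the lines and with 5-ALA. In mutant cells with estradiol against untreated WT cells they ran the same way, with Slc39a8, Mt1 and Mt2 all higher. Mt1 stood at 316 ± 26.8 CPM in mutant cells with 5-ALA, 677 ± 23.8 CPM in mutant cells given estradiol alone, 163 ± 4.2 CPM in WT cells with estradiol and 293 ± 3.6 CPM in untreated WT cells. Mt2 had 140.4 ± 4.22, 329 ± 6.38, 57.8 ± 0.844 and 306 ± 7.36 CPM in the same order (SD, n = 3 each). Each difference of Mt2 passed edgeR's test, with log2 fold changes of -2.40 for estradiol in WT cells, 2.51 for mutant against WT cells and -1.23 for 5-ALA. Mtf1, which encodes MTF-1, was at 171.2 ± 1.08, 181.2 ± 0.871 and 185.3 ± 1.46 CPM in the 3 estradiol groups and at 55.7 ± 0.514 CPM in untreated WT cells. It shares 721 exon bases with 1110065P20Rik on the opposite strand. Free zinc and protein levels were not measured.

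A ratio of 2 genes within a library does not depend on how libraries are scaled against each other. Per TPM, Slc30a1 over Slc39a8 was 1.14, 1.13 and 1.15 in mutant cells with 5-ALA, 0.672, 0.659 and 0.647 in mutant cells with estradiol, 1.65, 1.66 and 1.69 in WT cells with estradiol and 1.00, 0.954 and 0.931 in untreated WT cells. The plasma-membrane exporter thus outweighed the leading importer in WT cells with estradiol, and the importer outweighed the exporter in mutant cells with estradiol. No 2 groups overlapped. The exact two-sided permutation test gave p = 0.1 in each comparison, the smallest that 3 libraries against 3 allow, so it cannot pass 0.05, and 25 such ratios and comparisons were computed.

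The same kind of ratio separates the intracellular members. Slc39a7 over Slc39a9 was 3.36 in mutant cells with 5-ALA, 2.70 in mutant cells with estradiol, 3.33 in WT cells with estradiol and 3.13 in untreated WT cells. It overlapped between mutant cells with 5-ALA and WT cells with estradiol (exact permutation p = 0.7), while mutant cells with estradiol lay below both. Slc39a8 over Slc39a9 overlapped between mutant cells (9.60 ± 0.237) and WT cells (9.79 ± 0.0931) with estradiol (SD, n = 3 each; exact permutation p = 0.3) and was higher in mutant cells with 5-ALA, at 11.6. It was 0.641 in untreated WT cells.

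**Figure D4:**
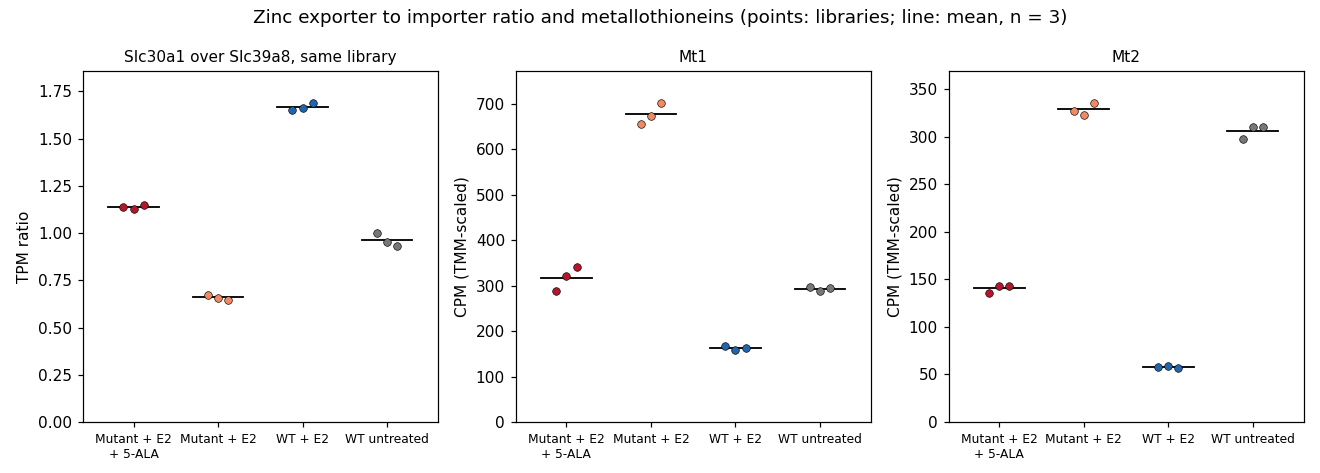
Ratio of Slc30a1 to Slc39a8 in TPM (left) and levels of Mt1 and Mt2 in CPM (middle and right) in each library, with the group mean as a line (n = 3), for mutant cells with estradiol (E2) and 5-ALA, mutant cells with E2, WT cells with E2 and untreated WT cells. Mutant cells with E2 have the lowest ratio, 0.647 to 0.672, and the highest mean Mt2, 329 CPM, and WT cells with E2 the highest ratio, 1.65 to 1.69, and the lowest mean Mt2, 57.8 CPM.

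The members differed in how far they moved over the 4 groups. The group means spanned 4.18 log2 units for Slc39a8, 3.82 for Slc39a4, 3.15 for Slc39a11, 2.01 for Slc39a6 and 1.64 for Slc39a10, and 0.40 to 0.69 for Slc39a1, Slc39a3, Slc39a7 and Slc39a9. For the 3 that moved most, the genes with the most similar pattern were sought by the root mean square difference of centred log2 CPM over the 12 libraries. Those nearest to Slc39a8 were Il4 (0.067), Pnpla7 (0.069) and Gpcpd1 (0.085), and those nearest to Slc39a11 were Rif1 (0.125), Pfas (0.140) and Spryd7 (0.149). For Slc39a4, with its few counts, the nearest were farther off, at 0.312 for Dennd1c, 0.393 for Pf4 and 0.398 for Cachd1. These are descriptions of pattern over libraries in which the estradiol split carries most of the variation.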

How the data were processed

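RNA of 12 libraries (4 groups of 3) was sequenced. Per the submitters' processing notes, the tools were CASAVA (1.8.2), Bowtie (1.1.1) and RSEM (1.2.20) on the mm10 build. The annotation release is not given in the sources used here, nor is any use of strand. Per the file headers, the deposited values per gene are RSEM expected counts, in which shared reads are divided by likelihood, with TPM and FPKM computed by the authors and scaled for transcript length and library size; FPKM was not used in a test.

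GENCODE M21 gave the symbols and positions, with 24746 of 25097 identifiers matched. Expected counts were rounded, filtered with filterByExpr (12115 genes kept), TMM-scaled and fitted in edgeR 4.0.16 (R 4.3.3) as 4 group means, and tested by the quasi-likelihood F test with Benjamini-Hochberg adjustment over all genes tested. A change is called at an adjusted p below 0.05. The common biological coefficient of variation was 0.0334, so small differences pass. CPM are TMM-scaled, and log2 CPM used a prior count of 2. The smallest ratios used summed counts with exact 95% intervals. The fit was also run on simulated counts in which most genes were left unchanged. Most genes differ in several comparisons here, so that run cannot test the scaling between libraries.

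The named genes were the 10 members in every comparison, the other ZIP genes, ZnT genes, metallothioneins and Mtf1, and the 3 genes most alike in pattern to each of the 3 members whose group means spanned most. Members and lists were chosen with earlier results of these data known. Alternatives were RLE scaling, library totals, DESeq2 1.42.0, limma 3.58.1 on log2(TPM + 1), no filter and a stricter one, the compared groups alone, a replicate block, and leaving out each library. Promoters came from RefSeq windows of GRCm38.p6, found for 7 of 10 members.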

Additional observations from a re-analysis of the deposited data

How the results depend on the processing

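Leaving out any 1 library changed no member's call in 3 comparisons (estradiol in WT, mutant against WT, mutant with estradiol against untreated WT). Nor did it reverse a called member there. Direction was not followed for members that passed in neither fit. In the comparison of mutant cells with 5-ALA against WT cells with estradiol, the number of members called higher ran from 1 to 3 over these fits. It was 1 where Slc39a4 lost its call, as it also did with DESeq2 and in the limma fit of TPM, and 3 where Slc39a6 gained one, as it also did with library totals. It was 1 with the 2 compared groups alone, where Slc39a4 did not pass the filter and has no value. With library totals and in the TPM fit, 1 member was called higher with estradiol in WT cells and 2 in mutant against WT cells. With estradiol in WT cells, Slc39a7 was -0.003 with library totals, and Slc39a9 was -0.10 with library totals and -0.046 in TPM. In mutant against WT cells, Slc39a1 was 0.144 with library totals and 0.171 in TPM, Slc39a10 was 0.021 in TPM, and 2326 genes were called lower in TPM, against 4076 with TMM scaling. With 5-ALA, genes called higher numbered 1434 with library totals and 806 in TPM, against 2620, and those called lower numbered 4642 and 5719, against 2543. In TPM, 2 members were called higher and 3 lower with 5-ALA, and Slc39a9 was -0.158 and Slc39a10 -0.252. The cause of these shifts was not tested. In every one of these settings Slc39a8 kept its direction and its call in all 5 comparisons.

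With the replicate block, 5215 genes were called higher and 5617 lower for estradiol in WT cells, against 5243 and 5621 without it, and no member's call changed in any comparison. The labels do not say whether libraries with the same replicate number were handled together. Of 18 same-numbered pairs of libraries, 0 had deviations that correlated above 0.1 (r from -0.104 to 0.067), and 4 of 18 correlated best with their own number. These correlations run over all genes and 3 libraries per group, so they cannot decide whether some genes share a batch.

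With 3 libraries per group, the depth limits Slc39a4 and Slc39a14, whose counts in estradiol libraries are near 0. For the other tested members, library totals moved each difference by about as much as the median of all genes, as such a change of scaling must. TPM, which also divides by transcript length, moved some by more or the other way.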

Other observations

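The abundance-weighted transcript length that RSEM gives for a gene differed between groups for some members with several transcripts in the tables. For Slc39a10 it was 4374 to 5146 bases in mutant cells with estradiol and 5-ALA, 4124 to 4529 bases in mutant cells with estradiol, 4476 to 4978 bases in WT cells with estradiol and 5024 to 5204 bases in untreated WT cells. For Slc39a6 it was 2662 to 3666, 3754 to 3882, 3293 to 3389 and 3570 to 3882 bases in the same order of groups. For Slc39a8 it stayed within 3264 to 3321 bases over all 12 libraries. TPM divides by this length and CPM does not, and these differences in length were not tested.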
